A study of Mus musculus with 3 samples.

Results

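The T cell/NKT class of the mouse ovary comprised 975 of the 14353 deposited single cells. Its members are the cells to which the authors' deposited annotation gives the class name T cell/NKT, 1 of 20 class names in that annotation, so the class was taken over as it stands. The cells came from ovaries of C57BL/6 mice in 3 conditions: young mice, aged mice that received no drug, and aged mice given metformin, a biguanide used against type 2 diabetes. The young group was 3 months old. Metformin was given in the drinking water at 350 mg/kg/day for 6 months from 14 months of age, and the labels give no age for the untreated aged mice whose cells were sequenced. From 5 mice in a group, the left ovaries of 3 were pooled into 1 suspension, tagged with a condition barcode, mixed with the other conditions, and sequenced as 3 pools, called A, B and C here. The 2 other groups of the study, a late metformin start at 18 months and a middle-aged control of 14 months, were not analysed here. The ovaries were dissociated for 30 min at 37 °C and passed through a 40 µm strainer, which removes most oocytes, and the gate of the cell sort is not given.

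The labels were read as 1 suspension per condition, with the pools as repeat captures of the same 3 suspensions. On that reading no test between conditions was possible, and no p-value is given. Intervals are exact 95% intervals that cover counting error only, and the value in each pool shows how well the pools agreed. Levels are in CPM, the unique molecular identifiers (UMIs) of a gene per 1000000 UMIs summed over the cells of a condition. A gene is said to have risen or fallen when it differed by at least 1.5-fold (0.58 on the log2 scale) with an interval that excluded 0, among genes with at least 20 UMIs in both conditions together. Since the 3 conditions of a pool were captured together, they also share its free RNA.

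T cells carry a receptor made of paired chains with the CD3 signalling subunits. CD8 T cells read peptides on major histocompatibility class I and kill through perforin and granzymes, CD4 T cells read class II, and NKT cells combine a T cell receptor with natural killer receptors. Memory CD8 T cells that express granzyme K are known to gather in several ageing tissues, and type I and II interferons set off a common antiviral gene programme in nearly every cell type.

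Because 17 interferon-response genes were lower in the aged cells, the promoters of 3 of them are shown here. Each is the 250 bases before the RefSeq gene start in GRCm38.p6, written 5′ to 3′ on the gene's strand, with matches to a short form of the interferon-stimulated response element in capitals. The motif searched was GAAA, any 2 bases, then GAAA, on both strands, so TTTC, any 2 bases, then TTTC counts as the same motif. Overlapping matches were allowed, and the motif was chosen after the values had been seen.
Isg15, chr4:156200819-156201068, minus strand: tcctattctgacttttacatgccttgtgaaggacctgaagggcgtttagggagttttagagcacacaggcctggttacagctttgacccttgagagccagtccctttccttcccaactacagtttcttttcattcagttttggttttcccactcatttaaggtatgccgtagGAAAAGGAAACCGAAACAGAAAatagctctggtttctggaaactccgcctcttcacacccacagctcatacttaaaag
Ifit3, chr19:34583279-34583528, plus strand: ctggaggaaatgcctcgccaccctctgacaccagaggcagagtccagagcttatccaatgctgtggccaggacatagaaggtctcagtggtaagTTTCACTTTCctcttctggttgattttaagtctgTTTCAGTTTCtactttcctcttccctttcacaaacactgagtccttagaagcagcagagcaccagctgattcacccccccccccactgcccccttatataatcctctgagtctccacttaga
Ifit1, chr19:34640639-34640888, plus strand: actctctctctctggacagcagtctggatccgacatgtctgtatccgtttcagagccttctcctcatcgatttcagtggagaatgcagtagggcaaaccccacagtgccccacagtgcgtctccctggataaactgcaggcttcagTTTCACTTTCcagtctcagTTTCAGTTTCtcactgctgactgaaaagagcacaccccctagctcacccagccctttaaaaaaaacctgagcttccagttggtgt
The Isg15 window held 3 overlapping matches, of which the nearest ended 57 bases before the start. Ifit3 held 2 matches, the nearest ending 113 bases before the start, and Ifit1 held 2, the nearest ending 76 bases before it. The motif lay in 978 of 32851 windows of this length (2.98%), which belong to 936 of 27025 genes (3.46%). Among the measured interferon-list genes with an entry, it lay in 8 of the 11 that fell with age and 3 of the 10 that did not. A match is a description of the letters, not of binding.

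The class carried the T cell markers of its name, with Cd3d, a CD3 subunit, in 89.7% of its cells. Marker genes such as these formed the classes, so their levels describe the class and do not test its name. Summed over the class, Cd3d stood at 1189 CPM, against 924 CPM in the class annotated T cell/ILC, 128 CPM in NK cell/ILC and 3.55 CPM in fibroblasts. Trbc2, a constant region of the receptor beta chain, stood at 1795 CPM against 484 CPM in NK cell/ILC. At least 2 of 6 receptor and CD3 genes had a UMI in 970 of the 975 cells, and 1 cell had none. Gzmk, which encodes granzyme K and lies on chromosome 13, was found in 48.9% of the cells at 363 CPM, against 9.24 CPM in T cell/ILC, 11.1 CPM in NK cell/ILC and 0.488 CPM in fibroblasts, of which 0.228% had a UMI. Eomes, a transcription factor of memory CD8 and NK cells, stood at 280 CPM against 7.26 CPM in T cell/ILC and 160 CPM in NK cell/ILC. Gzma, granzyme A, was low in the class (44.2 CPM) and high in NK cell/ILC (6514 CPM). The gamma-delta receptor gene Trdc stood at 13.3 CPM against 524 CPM in T cell/ILC, while the gamma chain gene Tcrg-C2 stood at 133 CPM against 77.3 CPM there. The type 2 cytokine gene Il13 had no UMI.

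Summed over the class, the NKT in the name had little support from Zbtb16 and Klrb1c. Zbtb16, the defining transcription factor of NKT cells, had 5 UMIs in the whole class (2.14 CPM), against 32.4 CPM in T cell/ILC. The NK receptor gene Klrb1c stood at 21.4 CPM against 496 CPM in NK cell/ILC. Of other NK genes, Ncr1 and Klra8 stood at 6.00 CPM each. Klre1 stood at 109 CPM, in 13.8% of the cells, against 1.32 CPM in T cell/ILC and 788 CPM in NK cell/ILC. Several NK receptor genes were higher in the cells with neither coreceptor, described below. Foxp3, the defining factor of regulatory T cells, had 4 UMIs. The deposited name is therefore kept only as a name.

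Young members were the deepest, with a median of 2402 UMIs per cell, against 2033 in aged and 1922.5 in metformin members. Shares of cells with a UMI of a gene depend on this depth. In young, aged and metformin members the median mitochondrial percentages were 2.50%, 2.18% and 2.03%, and the summed UMIs 494085, 511979 and 1326838. Among the markers of other cells, the summed B cell list stood at 739, 877 and 999 CPM in young, aged and metformin members, the fibroblast list at 235, 354 and 252 CPM, and the macrophage list at 83.0, 82.0 and 76.9 CPM. Most of the B cell sum was Igkc, the immunoglobulin kappa constant gene, which had a UMI in 66.7% of young, 69.2% of aged and 72.0% of metformin members. Across the series 52 cells had a barcode that occurred in 2 pools, 3 of them members, and no barcode was shared by 2 members.

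The class made up a growing share of the recovered ovarian cells from young to aged to metformin-treated mice. It held 168 of the young cells (2.20%, interval 1.89–2.56), 221 of the untreated aged cells (7.42%, 6.50–8.42) and 586 of the metformin cells (15.6%, 14.5–16.8). The young share was 2.72%, 1.96% and 1.94% in pools A, B and C, the aged share 6.78%, 7.77% and 7.99%, and the metformin share 15.3%, 14.1% and 17.0%. No pool of one condition reached the range of another. The aged share was 3.36 times the young share (2.74–4.14) and the metformin share was 2.10 times the aged share (1.80–2.47).

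**Figure D1:**
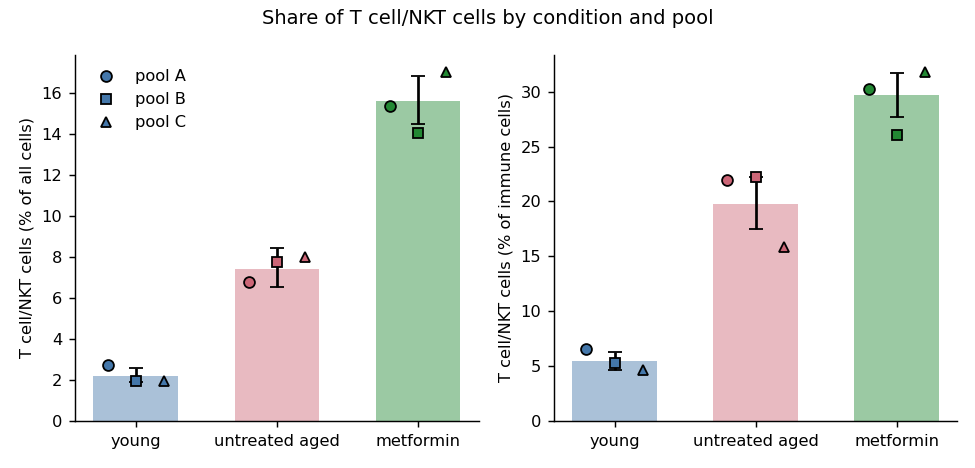
Bars give T cell/NKT cells as a percentage of all cells and of immune cells in young, aged and metformin ovaries, with the exact 95% interval and 1 point per pool. The share of all cells was 2.20%, 7.42% and 15.6%, with no overlap of the pools between conditions.

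Shares within a suspension sum to a fixed total, so the same ratio was taken among immune cells alone. There the class held 5.46% of 3079 young, 19.8% of 1117 aged and 29.7% of 1975 metformin immune cells. The ratio of aged to young was 3.63 (2.95–4.46), and that of metformin to aged was 1.50 (1.28–1.76). In pool B the metformin-to-aged ratio among immune cells was 1.18 (0.881–1.58), an interval that includes 1. Macrophage/Monocyte I cells held 21.6% of young, 6.81% of aged and 6.45% of metformin cells, and fibroblasts held 26.0%, 43.6% and 29.4%. In aged pools A, B and C fibroblasts held 52.4% (49.6–55.2), 45.2% (42.0–48.5) and 28.5% (25.4–31.7). The aged pools thus differed in make-up by more than counting error, and the cause was not tested. The neighbouring class T cell/ILC held 1.92% of young, 6.71% of aged and 9.43% of metformin cells, and NK cell/ILC 5.68%, 6.55% and 5.73%. More T cell/NKT cells in the ovary and fewer cells of the other classes cannot be told apart from these shares, and the ungiven sort gate bears on them too.

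By coreceptor UMIs the class was mostly CD8. A UMI of Cd8a or Cd8b1, the chains of the CD8 coreceptor on chromosome 6, without one of Cd4, was found in 717 of 975 cells (73.5%). Cd4 without Cd8 was found in 26 cells, neither in 232, and both in no cell. A count of 0 cells allows a share of cells with UMIs of both of up to 0.308%, taken as 3 of the 975 cells, and does not limit how many express both. In fibroblasts, which should lack CD8, 0.756% of young, 0.539% of aged and 0.817% of metformin cells had such a UMI at a median of 4043 UMIs per cell, against 2018 in the class. The CD8 share was 60.7% in young (52.9–68.1), 77.4% in aged (71.3–82.7) and 75.8% in metformin members (72.1–79.2). In pools A, B and C it was 58.8%, 69.4% and 54.9% in young, 80.7%, 76.7% and 73.8% in aged, and 74.1%, 75.2% and 77.5% in metformin members. All young pools lay below all aged and all metformin pools before depth was matched, while the aged and metformin pools overlapped.

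Cells with Cd4 made up 5.36% of young, 1.81% of aged and 2.22% of metformin members, which is 9, 4 and 13 cells. Cells with neither coreceptor made up 33.9% of young (57 cells), 20.8% of aged (46) and 22.0% of metformin members (129). With each cell thinned to 1000 UMIs, which left out 4, 11 and 25 shallower cells, the CD8 share was 53.7%, 65.7% and 59.5%. The order of the conditions was kept, but the pools then overlapped, at 47.8%, 65.3% and 50% in young, 68.8%, 67.1% and 60% in aged, and 56.5%, 59.2% and 62.4% in metformin members.

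**Figure D2:**
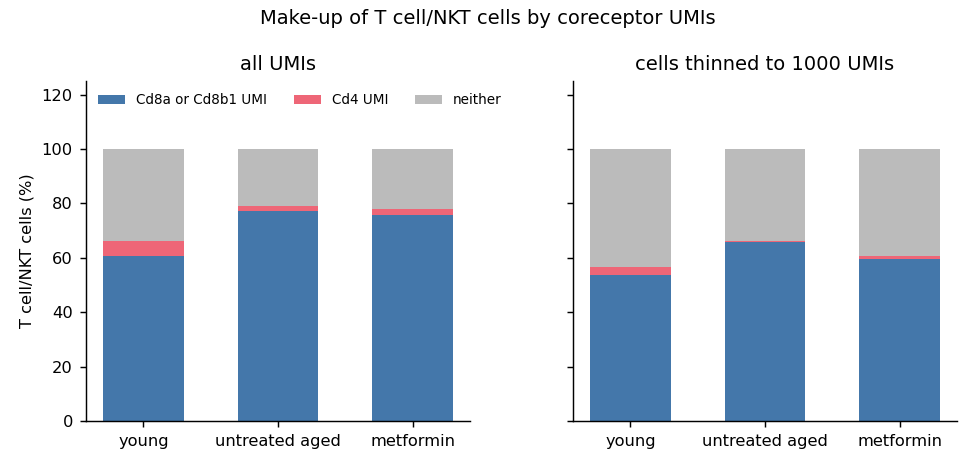
Stacked bars give the percentage of T cell/NKT cells with a CD8 UMI, a Cd4 UMI or neither, by condition, with all UMIs and with each cell thinned to 1000 UMIs. Young members had the lowest CD8 share in both versions, 60.7% and 53.7%.

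Summed over the 232 cells with neither coreceptor, several NK receptor genes stood higher than in the CD8 cells, while T cell genes were nearly level. The 232 cells were as deep as the CD8 cells, with a median of 2015.5 UMIs against 2033 in the CD8 cells. Cd3d (−0.09 on the log2 scale, neither to CD8), Trbc2 (−0.07), Il7r (0.06) and Eomes (−0.08) were nearly level between them. Fcer1g, a signalling adaptor of NK and innate-like cells, stood at 238 CPM against 37.1 CPM, a log2 difference of 2.68 (2.23–3.14). Its partner adaptor Tyrobp stood at 157 against 36.0 CPM (2.13), and Klrb1c at 69.3 against 7.54 CPM (3.20). Klra7, an inhibitory receptor of the Ly49 family, stood at 152 against 15.7 CPM (3.28), and Klra1 (5.24) and Klra9 (4.04) were higher too. The Klra genes are close copies, so the split of counts among them is uncertain. These sums do not give the share of the 232 cells that held each gene. In the whole class 41 of 975 cells had a Klrb1c UMI, so at most 41 of the 232 did. Thinning to 1000 UMIs raised the share with neither coreceptor to 43.3% of young, 33.8% of aged and 39.4% of metformin members. A cell with neither UMI can therefore still express CD8.

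Also higher were Ikzf2, which encodes the factor Helios (257 against 64.4 CPM, 1.99), Cd40lg, the CD40 ligand of helper T cells (76.8 against 5.80 CPM, 3.73), Trdc (50.6 against 2.32 CPM, 4.45) and Ramp1 (2.61), a subunit of the CGRP receptor. Lower were Gzma (−2.92), the lymph node homing receptor Ccr7 (−2.18), the inhibitory receptor Pdcd1 (−1.63) and Tox (−0.82). Over the 9 sums of a condition in a pool, Klrb1c, Klra7, Klra9, Ikzf2 and Ramp1 were higher in the neither cells in 9, Fcer1g, Tyrobp and Cd40lg in 8, while Pdcd1 and Ccr7 were lower in 9. Trdc was higher in 5 of the 9 sums and lower in 2, and Klra1 was higher in 5. The gap of Gzmk varied by condition, with 44.2 CPM in the neither cells and 186 CPM in the CD8 cells of young members, 191 and 363 CPM in aged, and 480 and 452 CPM in metformin members. Tcrg-C2, a constant region of the gamma chain, was lower in the neither cells, at 78.7 against 155 CPM (−0.98, −1.49 to −0.51). All 5 Zbtb16 UMIs of the class were in the neither cells.

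**Figure D3:**
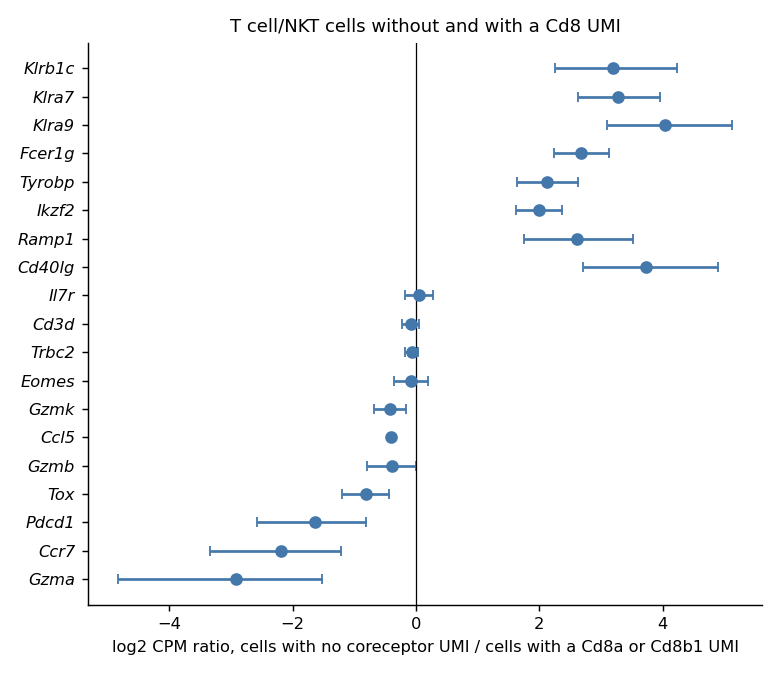
Points give the log2 ratio of CPM in T cell/NKT cells with neither coreceptor to those with CD8 for 19 genes, with exact 95% intervals. Klra9, Klra7, Klrb1c, Fcer1g and Cd40lg lie to the right, Pdcd1, Ccr7 and Gzma to the left, and Cd3d and Trbc2 near 0.

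In aged against young members, granzyme K, the transcription factors Eomes and Tox and the interleukin 7 receptor rose, while granzyme B, 17 of 28 measured interferon-response genes and 16 of 23 cell cycle genes fell. Of 5366 measured genes, 159 rose (2.96%) and 289 fell (5.39%), with a median log2 change of −0.03 over all of them. The same rule applied between 2 pools of 1 condition called 3.62–8.05% of genes in total. A count of calls near those shares is therefore no more than the pools of 1 condition showed. Single genes are therefore given with the value in each pool. Genes picked for the size of their change had to have the same sign in every pool, so that agreement in sign is not independent support.

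Gzmk stood at 95.9, 185 and 145 CPM in young pools A, B and C, at 403, 330 and 265 CPM in aged pools, and at 424, 567 and 417 CPM in metformin pools. Every aged pool lay above every young pool and below every metformin pool. Its log2 change with age was 1.30 (0.88–1.73), from 67 UMIs in 42 of 168 young cells to 171 UMIs in 102 of 221 aged cells, and 333 of 586 metformin cells had a UMI. Eomes, which drives memory CD8 and NK programmes, stood at 110, 205 and 40.3 CPM in young pools and 362, 276 and 259 CPM in aged pools, a change of 1.30 (0.86–1.75). Tox, a factor of exhausted and age-associated T cells, stood at 137, 79.4 and 40.3 CPM against 202, 281 and 164 CPM, a change of 1.20 (0.70–1.73). Both factors were higher in every aged pool than in any young pool, and Tox rose by 1.88 without pool A.

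Il7r, the receptor through which memory T cells survive, stood at 251, 152 and 274 CPM in young pools and 427, 541 and 587 CPM in aged pools, a rise of 1.19 (0.87–1.52). Hsph1, a heat shock protein, stood at 41.1, 39.7 and 32.3 CPM against 131, 146 and 133 CPM, a rise of 1.83 (1.08–2.64). Neither gene overlapped between the conditions. Tnrc6c (1.27), a subunit of the microRNA silencing complex, and Bms1 (1.71), a ribosome assembly factor, rose as well.

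These rises depended in part on which cells were counted. Among cells with no UMI of 7 genes of other cell types, which left 47 young and 58 aged cells, the changes of Gzmk (0.35), Eomes (0.25) and Tox (−0.02) no longer passed, nor did those of Hsph1 (1.34), Bms1 (2.23) and Bst2 (−0.14), while Il7r (1.41) and Isg15 (−4.05) did. In those cells Gzmk stood at 170 CPM in young, 216 CPM in aged and 532 CPM in metformin members, from 23, 28 and 155 UMIs. In the remaining cells it stood at 123, 374 and 438 CPM. Among CD8 cells alone the rise of Gzmk was 0.97, and with cells thinned to 1000 UMIs it was 1.21.

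The other cytotoxic genes did not move as one. Of 20 measured cytotoxic genes 5 rose and 3 fell, against 2.96% and 5.39% of all measured genes, with a list median of −0.18. Gzmb, granzyme B, fell from 361, 364 and 339 CPM in young pools to 142, 195 and 88.4 CPM in aged pools, a change of −1.30 (−1.71 to −0.90) with no overlap. The CD94 receptor gene Klrd1 (−0.90) fell too, and Zeb2, a factor of terminal effector cells (−0.95), lost its call without pool B (−0.54) and without pool C (−0.89). Gzmm (1.38), Fasl (0.79) and Prf1 (0.78) rose, but each lost its call without pool A, at 0.37, 0.56 and 0.62. Without pool B the change of Gzmm was 2.39 and that of Fasl, then not called, 0.39. Gzma was not called, with pool values of −2.62, 1.12 and 0.19 on the log2 scale, and neither were the chemokine Ccl5 (0.35) or the granule protein Nkg7 (0.31). Over the 9 sums of a condition in a pool, the genes whose log2 level followed that of Gzmk most closely were Ccl5 (Pearson 0.965), Sema4a (0.922) and Ddx6 (0.918) of 2860 compared, a description over sums that share libraries.

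**Figure D4:**
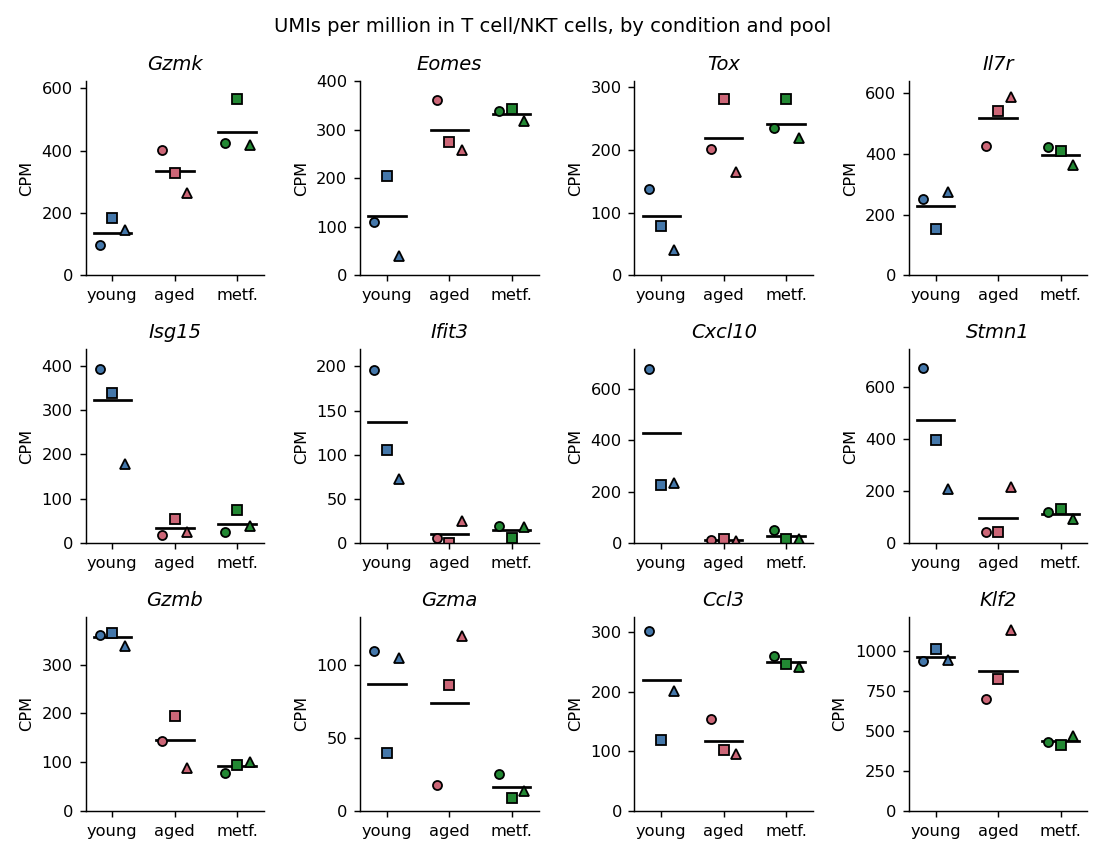
Each panel gives the CPM of 1 gene in T cell/NKT cells by condition, with a point per pool and a line for all pools together. Gzmk, Eomes, Tox and Il7r are higher in every aged pool than in any young pool, Isg15, Ifit3, Cxcl10 and Gzmb are lower, and Klf2 is lower in every metformin pool than in any aged pool.

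Of 28 measured interferon-response genes, 17 fell with age and none rose, against 5.39% of all measured genes that fell, and the list median was −1.01 (pools A, B and C −0.86, −0.86 and −1.09). Isg15, a ubiquitin-like antiviral protein whose promoter is printed above, stood at 393, 338 and 177 CPM in young pools and at 17.8, 54.0 and 25.3 CPM in aged pools. The fall was −3.28 (−4.09 to −2.55), from 159 UMIs in 31 young cells to 17 UMIs in 14 aged cells. Ifit3, which binds viral RNA complexes, stood at 196, 106 and 72.6 CPM against 5.93, 0 and 25.3 CPM (−3.82), a total of 68 against 5 UMIs, and its change without pool A was −2.96 and without pool C −5.82. Ifit1 fell by 2.12 on the log2 scale, and Usp18, which removes ISG15 from proteins, by 3.34. Without pool B the changes of Isg15 and Ifit1 were −3.88 and −2.81. Every young pool lay above every aged pool for Isg15 and Ifit3.

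Ifi27l2a, an abundant interferon-induced gene, stood at 1740, 1416 and 968 CPM in young pools and at 510, 416 and 398 CPM in aged pools (−1.71, −1.94 to −1.50). Bst2 (−1.37), which tethers viruses to the cell surface, and the transcription factor Irf1 (−0.84) fell too. Among CD8 cells alone 14 of 27 measured interferon genes fell, and Isg15 fell by 2.56 on the log2 scale. Among cells without a UMI of the 7 genes of other cells 5 of 17 fell, with a median of −0.65, and with cells thinned to 1000 UMIs 10 of 23 fell. Over all genes 225 fell among CD8 cells, 106 among cells without those UMIs and 101 in thinned cells. The same list fell in 8 of 23 measured genes in T cell/ILC, with a median of −0.63, and in 7 of 26 in NK cell/ILC, with a median of −0.47. Of all measured genes 3.72% fell in T cell/ILC and 2.60% in NK cell/ILC. Whether the classes differ in this was not tested. Of the 12 measured class I presentation genes, many of which interferon also induces, none rose or fell, with a median of 0.08.

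Cxcl10, an interferon-induced chemokine that draws CXCR3-bearing T cells, stood at 676, 225 and 234 CPM in young pools and at 11.9, 16.2 and 6.32 CPM in aged pools (−5.19). Its 211 young UMIs lay in 22 cells, 48 of them in 1 cell, against 6 UMIs in aged cells. The change was −4.30 without pool A and −5.81 without pool B. Ctse, the protease cathepsin E (−5.10, −10.4 to −2.52, from 33 UMIs to 1), and Jaml, an adhesion molecule of epithelium-associated T cells (−2.48, and −3.21 without pool A), fell as well.

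Of 23 measured cell cycle genes 16 fell and none rose, against 5.39% of all measured genes that fell. The list median of −1.24 came from 2 of the pools (−1.95, −1.29 and 0.20 in A, B and C). Stmn1, which destabilises microtubules in dividing cells, stood at 671, 397 and 210 CPM in young pools and 41.5, 43.2 and 215 CPM in aged pools (−2.30), so the conditions overlapped, and its change was −1.35 without pool A and −3.72 without pool C. Birc5 (−2.78, −1.67 without pool A and −4.91 without pool C), which encodes survivin, and Mcm7 (−2.22), a replication helicase subunit, fell as well, while Cenpe (−2.24) stood at −4.52 without pool C and lost its call without pool A at −0.68. Without pool A, 7 of 19 cell cycle genes fell. A UMI of at least 1 of 7 division genes was present in 32 of 168 young (19.0%, 13.4–25.8), 22 of 221 aged (9.95%, 6.34–14.7) and 64 of 586 metformin members (10.9%). With cells thinned to 1000 UMIs these shares were 14.6%, 5.71% and 6.77%. Fibroblasts, which are deeper, had such a UMI in 25.5%, 20.9% and 15.2% of cells. Without the division-gene cells 15 of the 28 interferon genes fell still, and none of 9 measured cell cycle genes did. The cell cycle count was in part set by the filter, which removes every cell with a UMI of the 7 genes.

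Of 13 measured NKT and innate-like genes 5 fell with age and none rose, while of all measured genes 5.39% fell and 2.96% rose. The list median was −0.68, beside the smaller share of cells with neither coreceptor. Fcer1g fell by 2.14 on the log2 scale, by 1.65 among CD8 cells alone and by 2.89 without pool B. Among cells without a UMI of the 7 genes of other cells, Fcer1g (−1.05), Plac8 (−1.20), Klra7 (−0.47) and Tyrobp (−0.22) were not called. Tyrobp was also not called without pool A (0.12) or among CD8 cells (0.23). Ramp1 (−3.37), Ikzf2 (−0.91) and Cd4 (−1.90, from 18 to 5 UMIs) were lower too, the last in few molecules. Of 14 naive and central memory genes 1 rose (Il7r) and 3 fell, while Ccr7 (−0.23), Lef1 (0.27) and Tcf7 (−0.21) were not called. Of 13 exhaustion and age-associated genes 2 rose, Tox and the factor Maf (0.99), and 3 fell. Pdcd1 (−0.38) and Lag3 (0.95, from 7 to 14 UMIs) were not called.

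Of 24 T cell receptor and signalling genes 4 rose and 1 fell with age, against 2.96% and 5.39% of all measured genes, with a list median of 0.06. Bcl11b, a T lineage factor, rose by 0.87, Trat1, an adaptor of the receptor, fell by 2.32 on the log2 scale, and Trbc1 (0.63) lost its call without pool A at 0.38. Cd3d (−0.08), Cd3e (−0.10), Trbc2 (−0.05) and Cd8a (0.20) were not called, nor was Cd8b1 (0.54), which stood at 601 CPM in young and 877 CPM in aged members. Trbc1 and Trbc2 are close copies whose counts can be split between them. Of 14 residency genes 1 fell, and Cd69 (−0.35) and Cxcr6 (0.04) were not called. Of 36 complex I subunits, the respiratory complex that metformin is known to inhibit, 2 fell and none rose, and of 10 AMPK and mTOR pathway genes none was called. None of the 13 mitochondrially encoded genes was called either, and 1 of 13 glycolysis genes fell.

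The remaining lists held few calls in number, beside 2.96% of all measured genes that rose and 5.39% that fell. Of 13 measured cytokines and ligands 1 rose and 4 fell, among them Ccl3 (−0.91), which lost its call without pool A at −0.66, and Tnf (−1.19, from 22 to 10 UMIs), which lost it without pool B at −0.81. Ifng, the effector cytokine interferon gamma, was not called (−0.28). Of 5 regulatory T genes 3 fell, with a median of −0.89, and none of 4 did without pool A. Of 17 chemokine and homing receptors 1 rose and 2 fell, among the latter the hyaluronan receptor Cd44 (−1.10), and of 12 apoptosis and survival genes 4 fell. Itgae, the residency integrin CD103, had 10 UMIs in young and 1 in aged members, below the 20 UMIs needed.

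In metformin against untreated aged members 132 genes rose and 143 fell, and Klf2 fell in every pool. These are 1.87% and 2.03% of 7043 measured genes, shares that together lie near the lowest value between pools of 1 condition. The 2 comparisons share the aged cells. Klf2, a transcription factor that keeps T cells quiescent and recirculating, stood at 940.8, 1012 and 944 CPM in young pools, 700, 827 and 1131 CPM in aged pools and 432, 412 and 469 CPM in metformin pools. Every metformin pool lay below every aged and young pool, and the change to aged was −1.0 (−1.18 to −0.81). Of 25 measured immediate early and dissociation stress genes 5 fell and none rose, with a median of −0.31 (pools −0.36, −0.34 and −0.30) and 24 of 25 below 0.

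Of that list, the antiproliferative gene Btg2 (−0.65) and the factor Klf6 (−0.63), lost their calls without pool B at −0.49 and −0.58. The survival kinase Pim1 fell by 0.63 on the log2 scale. In T cell/ILC 11 of the same 25 genes fell, with a median of −0.50, after 17 of 25 had risen with age there. Over all measured genes of that class 3.19% fell with metformin and 9.46% rose with age. In T cell/NKT members 3 of 27 rose and 2 fell with age, with a median of 0.00. The dissociation itself can induce these genes, and its part in the result was not tested.

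Of the 7 genes picked for the size of their rise with age, Hsph1 fell with metformin and the others were not called. Gzmk stood at 334 CPM in aged and 459 CPM in metformin members, a difference of 0.46 (0.21–0.71) that was short of 1.5-fold although no pool overlapped. Eomes (299 and 332 CPM, 0.15) and Tox (219 and 241 CPM, 0.14) were not called, nor was Il7r (518 and 396 CPM, −0.39), whose metformin pools all lay below its aged pools. Tnrc6c (176 and 127 CPM) and Bms1 (66.4 and 53.5 CPM) were lower with metformin but short of 1.5-fold. Hsph1 fell by 1.04 on the log2 scale (−1.51 to −0.57), to 63.5, 57.3 and 75.2 CPM. The interferon list had 1 of 27 genes risen (Irf1, 0.82) and none fallen, and Isg15 stood at 33.2 CPM in aged and 43.0 CPM in metformin members (0.37).

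Of 21 measured cytotoxic genes 4 fell and none rose, while of all measured genes 2.03% fell and 1.87% rose. Gzma fell by 2.16 on the log2 scale, from 74.2 to 16.6 CPM, with pool values of 0.51, −3.33 and −3.12, so pool A went the other way, and the fall was 3.12 without pool A and 1.56 without pool C. Of the 38 aged Gzma UMIs 16 lay in 1 cell, and of the 22 metformin UMIs 8 did. Gzmb (−0.66) lost its call without pool A (−0.57) and without pool B (−0.37). Among cells without a UMI of the 7 genes of other cells, neither Gzma (−1.16) nor Gzmb (−0.20) was called. Ly6a, the surface protein Sca-1, fell from 287 to 158 CPM (−0.87). Cish (−1.0), a suppressor of cytokine signalling, and Capg (−1.31), an actin-capping protein, fell too. Rnaseh2b fell by 1.44 on the log2 scale, while Pi4ka (−1.57), Ermp1 (−1.57) and Cep120 (−1.37) lost their calls without pool C (−0.94), B (−1.12) and A (−0.55). Each of these 4 rested on 24 or fewer UMIs in a condition.

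Ccl3, an inflammatory chemokine of activated T cells, stood at 154, 103 and 94.7 CPM in aged pools and 261, 246 and 241 CPM in metformin pools (1.09, 0.69–1.51). Of its 331 metformin UMIs 75 lay in 1 cell, and among CD8 cells alone the difference was 0.23 and not called. A Ccl3 UMI was found in 37 of 221 aged cells (16.7%) and 90 of 586 metformin cells (15.4%), so the share of cells did not rise. In another deposited class Ccl3 stood over 10 times higher than in T cell/NKT cells. Lmo1, a transcriptional cofactor, rose by 2.03, from 7 UMIs in 5 of 221 cells to 74 UMIs in 57 of 586. Sf3a2, a splicing factor, rose by 2.87 (0.92–5.97) from 2 to 38 UMIs, while Zer1 (2.71) lost its call without pool B at 2.0 and Atp8a1 (2.25) without pool C at 1.72. Without pool B the change of Atp8a1 was 1.48. Among the 141 metformin and 58 aged cells without a UMI of the 7 genes of other cells Lmo1 stood at 0.64 and Sf3a2 at 2.01, neither called. Tnf rose by 1.16, from 10 to 58 UMIs, and lost its call without pool A (1.04) and without pool C (1.11). None of 24 receptor genes and none of 15 AMPK and mTOR pathway genes was called, and 1 of 36 complex I subunits rose, Ndufa9 (0.97), which lost its call without pool B.

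**Figure D5:**
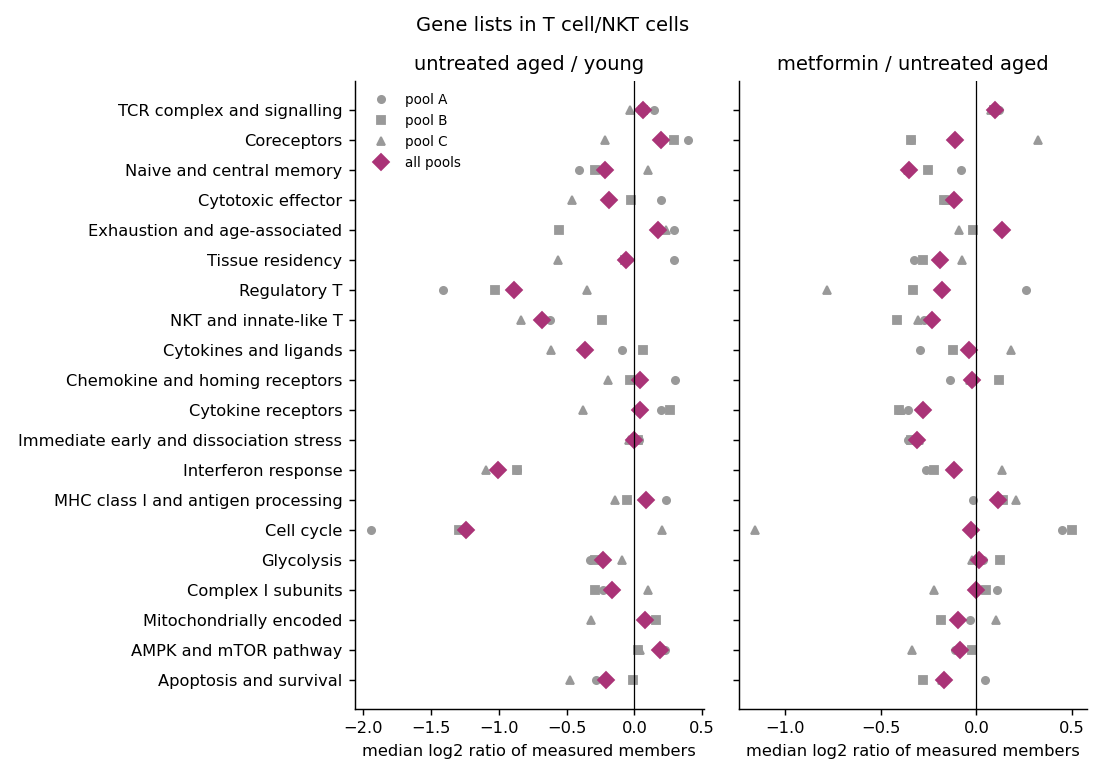
Diamonds give the median log2 difference of each of 20 gene lists in T cell/NKT cells, aged to young and metformin to aged, and grey points the same in each pool. Interferon response (−1.01) and cell cycle (−1.24) lie lowest with age, and the immediate early list (−0.31) is below 0 in each pool with metformin.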

How the data were processed

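Mouse ovarian cells were profiled by 10x 3′ single-cell RNA sequencing, version 3 chemistry, with condition barcodes, in 3 pools. Per the submitters' processing notes, reads were processed with Cell Ranger 3.0.2 on GRCm38 (mm10). The deposited matrix holds raw UMI counts per gene and cell, and the deposited cell table gives the authors' class names, the condition barcodes (Bar1 young, Bar3 untreated aged, Bar4 metformin) and the percent of mitochondrial UMIs per cell. Filters on cells and the clustering method are not given in the sources used here. No cell is marked as a doublet in the cell table, and doublets were not called again. The separate barcode list was not used.

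UMIs were summed over T cell/NKT cells per condition and pool (Python 3.11.15, numpy 2.4.6, scipy 1.17.1, pandas 2.3.3, matplotlib 3.10.9). With 1 suspension per condition, shares had exact Clopper-Pearson intervals and ratios exact conditional intervals, which cover counting error only. A count of 0 stood at a floor of 3 UMIs, and list medians used 1 added UMI. The calling rule was checked on simulated data. Named genes had at least 30 UMIs, the same sign in every pool and an interval bound beyond 0.58 (beyond 0 for metformin falls, where fewer than 4 genes passed), up to 12 per direction ranked by that bound. Genes over 10 times higher in another class were left out (2 and 8 for age, 4 and 15 for metformin), as were gene models and ribosomal genes. A fixed marker set and up to 4 called members of each list were added. Some of these had been left out of the ranking as over 10 times higher in another class, among them Ccl3, Bst2, Fcer1g, Plac8 and Ramp1. The members and lists were chosen with earlier results of these data known. Gene positions and promoters came from RefSeq and GENCODE tables of GRCm38. Alternatives left out each pool, used CD8 cells only, left out cells with UMIs of other cells or of division genes, thinned cells to 1000 UMIs, and changed the scaling and the UMI minimum.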

Additional observations from a re-analysis of the deposited data

Results flagged for a closer look

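Tnf, which encodes the inflammatory cytokine TNF, went opposite ways in the T cell/NKT and T cell/ILC classes, in every pool and in both comparisons. With age its log2 difference in T cell/NKT cells was −1.19 (pools A, B and C −1.21, −1.75 and −0.67) and in T cell/ILC cells 2.45 (3.30, 2.64 and 1.92). From untreated aged to metformin it was 1.16 in T cell/NKT cells (1.60, 0.78 and 1.13) and −1.02 in T cell/ILC cells (−1.02, −0.90 and −1.09). The T cell/NKT values rest on 22 UMIs in young, 10 in aged and 58 in metformin cells. The difference between the classes was not tested, and both comparisons use the same aged cells.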

How the results depend on the processing

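The counts are shallow, with 168 young and 221 aged members and 1 suspension per condition, so the spread between mice was not measured. No paired analysis was possible because each condition was taken as 1 suspension that the pools repeat, and no test was made. Alternatives on CD8 cells, division-gene cells and, for the gene lists, other-cell UMIs were chosen after seeing the data. The cause of the shifts below was not tested, except where a setting uses fewer genes or cells.

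Leaving out 1 pool gave share ratios of 3.08–4.03 (aged to young) and 2.0–2.23 (metformin to aged), and CD8 shares of 57.1–63.2% in young, 75.4–78.8% in aged and 74.6–76.6% in metformin members. The metformin-to-aged ratio was 1.50 among immune cells and 1.77 with the T cell/ILC class added. With 2 or more UMIs required, the CD8 shares were 47.0%, 57.0% and 52.05% in young, aged and metformin members, and with thinned cells 65.7% in aged and 59.5% in metformin members.

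Leaving out 1 pool, 110–157 genes rose and 177–289 fell with age, and 122–137 rose and 119–130 fell with metformin. Without pool A, 177 genes fell with age, of which 110 were among the 289 of all pools, and 110 rose, of which 52 were among the 159. Cells without a UMI of other-cell genes gave 61 and 106 with age and 73 and 74 with metformin, thinned cells 77 and 101, then 81 and 92, and a minimum of 100 UMIs 34 and 86, then 42 and 37. Without division-gene cells 164 fell with age, and with no UMI minimum 223 fell with metformin.

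Some single genes took the other sign, given here on the log2 scale. Aged to young, values without 1 pool ran from −0.93 to 0.39 for Capg (positive without pool A), −1.48 to 0.12 for Tyrobp (pool A), −2.25 to 0.17 for Hspa1a (pool A) and −2.87 to 0.069 for Tnfrsf4 (pool B). In CD8 cells Tyrobp 0.23 did so, and in thinned cells Dapl1 0.23. The values in CD8 cells of Cd4 and Areg (0.36 each) were positive too. No CD8 cell had a Cd4 UMI, so the Cd4 value rests on 0 UMIs in both conditions and measures no reversal. Areg had the same value, so no reversal is read from it either. Without division-gene cells Capg 0.23, Stmn1 1.27 and Pcna 0.34 took the other sign. Birc5 stood at 0.32 there, but it is 1 of the 7 division genes whose UMIs removed a cell. Its value therefore rests on 0 UMIs in both conditions and measures no reversal. Without other-cell UMIs Tox −0.021, Cd247 −0.26, Cd40lg 0.52, Hspa1a 0.061 and Bcl2l11 1.06 did so. Metformin to aged, values without 1 pool ran from −0.91 to 0.033 for Klrc2 (positive without pool B), −1.79 to 0.20 for Klf4 (pool C) and −1.24 to 0.55 for Hist1h1b (pool C). Klf4 stood at 0.31 without division-gene cells and 0.58 without its top cell. Hist1h1b stood at 1.25 without other-cell UMIs, 0.51 in thinned cells, 0.84 in CD8 cells and 0.58 without its top cell.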
